A study of Mus musculus with 36 samples.

Results

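Common myeloid progenitors from mice that lack Zrsr2 were compared with the same cells from wild-type mice, in 6 of the 36 libraries of the study: 3 labelled KO and 3 labelled WT. The members were chosen by their titles alone, KO1 to KO3 and WT1 to WT3 of the CMP libraries. All 6 mice were male littermates of the C57BL/6 strain background, and the labels give the genotype of the KO mice as Zrsr2-deficient. The labels name no Cre driver, promoter, age or marker gate. The same 6 mice also gave granulocyte-monocyte progenitors, called GMP, and progenitors of megakaryocytes and erythroid cells, called MEP, whose 12 libraries were used here to estimate the spread and for values set side by side. RNA was polyA-selected, so unspliced molecules were seen only where they carried a polyA tail.

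Zrsr2, whose gene is X-linked, is an RNA-binding protein needed to define where U12-type introns end. These introns are a rare class removed by the minor spliceosome, a machine with its own small nuclear RNAs, and they are known by a strongly conserved 5′ splice site and branch point. Loss-of-function mutations of ZRSR2 occur in human myelodysplastic syndromes, and the common myeloid progenitor is the stage of blood formation from which granulocyte, monocyte, erythroid and megakaryocyte lineages arise.

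The deposited files give, for each annotated intron, the reads that cross its boundaries unspliced, the reads spliced across it and the fraction of it covered. The percent retained is 100 times the mean of the boundary reads at both ends over that mean plus the spliced reads. Gene levels are spliced counts summed over a gene's introns, given as CPM, per 1000000 such counts of the library. A read counts for every intron its gap contains, so these sums are not numbers of separate reads. Over all listed introns, spliced counts summed to 44083233 to 50515089 in libraries of KO mice. In those of WT mice they summed to 62699289 to 71576589, so each KO library was shallower than each WT library. Boundary reads per 100 spliced counts were 5.54 to 5.98 in KO and 4.97 to 5.87 in WT libraries. Kit, the stem cell factor receptor, stood at 427 to 537 CPM in KO and 471 to 491 CPM in WT libraries, and Cd34, the surface marker of early progenitors, at 448 to 463 and 418 to 466 CPM. Mpo, the granule peroxidase of granulocyte progenitors, reached 2001 to 3435 CPM over the 6 libraries against 19677 to 20535 CPM in GMP libraries of KO mice. The T cell marker Cd3e was at most 0.476 CPM. Gene changes moved with base composition, as described with the gene levels.

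Zrsr2 itself, at chrX:163935443-163958661 of mm10, checked the labels. Its spliced counts, summed over introns, were 2, 0 and 0 in the 3 KO libraries and 1970, 2138 and 2147 in the 3 WT libraries. No KO library came near a WT library, and the gene passed the edgeR quasi-likelihood test with Benjamini-Hochberg adjustment (adjusted p = 1.68e-08).

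The introns on which the results turn are shown first, because 3 of the 4 introns called share a U12 5′ splice site. Sequence was taken from annotated GENCODE M21 transcripts that run through an intron and from RefSeq promoter windows, which gave the 5′ end of 25137 and both ends of 10517 of the 219945 listed introns. An intron was called U12-type where its first 8 bases matched a U12 5′ site (GTATCCTT or ATATCCTT), allowing 1 mismatch, its last bases were AG or AC, and the U12 branch point motif was found within 40 bases of its end, allowing 2 mismatches; 75 introns of 72 genes met this rule. A wider group of 135 introns carries the 8-base 5′ site without a mismatch, whether or not the 3′ end is known. All sequences are read 5′ to 3′ on the gene's strand, with the 5′ site and the best branch point match in capitals.
Msh3 intron 6, first bases: ATATCCTTttag
Msh3 intron 6, last bases: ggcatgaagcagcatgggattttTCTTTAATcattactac
Taf2 intron 12, first bases: GTATCCTTttca
Srpk2 intron 5, first bases: GTATCCTTtgct
Mcts1 intron 4, first bases: GTATCCTTccca
Lmbr1l intron 13, first bases: GTATCCTTctgg
Lmbr1l intron 13, last bases: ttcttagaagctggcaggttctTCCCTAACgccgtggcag
Cgrrf1 intron 3, whole: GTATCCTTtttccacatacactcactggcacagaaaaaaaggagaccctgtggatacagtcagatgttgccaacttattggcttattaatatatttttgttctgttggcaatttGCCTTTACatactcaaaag
Hdhd5 intron 3, first bases: GTATCCTTtcag
Pcyt2 intron 8, first bases: GTATCCTCtgct
Pcyt2 intron 8, last bases: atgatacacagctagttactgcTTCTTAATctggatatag
The Msh3 intron opens with AT and closes with AC, whereas the Lmbr1l and Cgrrf1 introns open with GT and close with AG, and all 3 are U12-type. The next-to-last base of the best branch match, an adenosine, is followed by 10 bases of the intron in Msh3, 11 in Lmbr1l and 12 in Cgrrf1.

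Retention of single introns was compared between KO and WT libraries over 62446 introns with enough reads of both kinds. Only 4 introns passed the test, all of them higher in KO: intron 6 of Msh3, intron 12 of Taf2, intron 3 of Pola2 and intron 2 of Tnpo2. This is 0.00641% of the introns tested. No intron passed in the lower direction (0.0%) by edgeR's diffSpliceDGE, where 1569 introns had an unadjusted p under 0.05; limma on the log2 ratios called 3 introns in all. The first 3 introns carry an exact U12 5′ site, and the sequence of the Tnpo2 intron was not among those covered by the transcripts.

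Msh3 encodes the subunit of the mismatch repair dimer MutSβ that recognises insertion and deletion loops. Its intron 6 of 23, at chr13:92345102-92346732 (minus strand, 1631 bases, coding region), was retained at 42.4%, 32.4% and 37.3% in the KO libraries and at 5.92%, 6.98% and 4.52% in the WT libraries. All 3 KO libraries lay far above the WT libraries, with 69 to 94 boundary reads per KO library against 14 to 17 in WT. The mean was 37.4% ± 5.01 (SD, n = 3) in KO and 5.81% ± 1.23 (SD, n = 3) in WT, and the log2 ratio of boundary to spliced reads rose by 3.25 (SE 0.52, diffSpliceDGE adjusted p = 0.00128). In cells of the same mice, the mean was 31.9% in KO and 13.4% in WT GMP, and 15.3% and 9.91% in MEP. The Msh3 gene level did not pass the test, with a log2 change of 0.12 (SE 0.0937).

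Taf2 encodes a subunit of TFIID, the complex that binds core promoters. Intron 12 of 25, at chr15:55048742-55049394 (minus strand, 653 bases, coding region), was retained at 33.5%, 24.2% and 39.4% in KO libraries and at 6.61%, 8.1% and 9.93% in WT libraries. The lowest KO library was well above the highest WT library. Boundary reads lay mostly at the 5′ end, with 100, 88 and 130 in KO libraries against 41, 7 and 18 at the 3′ end. In WT libraries they numbered 23, 40 and 41 against 7, 0 and 0. The percent retained thus rests mostly on the 5′ end. The log2 ratio rose by 2.40 (SE 0.425, diffSpliceDGE adjusted p = 0.00492), and the means in GMP were 20.8% and 6.98%, in MEP 20.2% and 7.51%. Spliced reads of the Taf2 gene summed to 115, 110 and 116 CPM in KO and 90.7, 88.4 and 91.9 CPM in WT libraries. The groups did not overlap, but the gene missed the threshold (log2 change 0.32, SE 0.0796, edgeR adjusted p = 0.818). With GC-corrected offsets it passed, at 0.40 (edgeR adjusted p = 0.027).

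Pola2 encodes the B subunit of DNA polymerase alpha, which starts DNA synthesis with primase. Its intron 3 of 17, in the coding region, was retained at 14.7%, 19.4% and 6.38% in KO libraries and at 2.11%, 3.28% and 3.74% in WT libraries. KO3 was the lowest of its group and still above every WT library. Boundary reads numbered 91 to 239 per KO library and 34 to 63 per WT library, and the log2 ratio rose by 2.20 (SE 0.57, diffSpliceDGE adjusted p = 0.00745). The means were 18.8% and 2.07% in GMP and 9.46% and 1.17% in MEP.

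Tnpo2 encodes transportin 2, a nuclear import receptor of RNA-binding proteins. Its intron 2 of 24, at chr8:85038490-85040461 (plus strand, 1972 bases), was retained at 9.02%, 6.27% and 3.95% in KO libraries and at 0.244%, 1.76% and 0.789% in WT libraries. The groups did not overlap and the log2 ratio rose by 3.06 (SE 0.623, diffSpliceDGE adjusted p = 0.0296), on 26 to 44 boundary reads per KO library and 2 to 12 per WT library. The means were 10.7% and 1.63% in GMP and 5.39% and 1.63% in MEP. With the replicate number as a block, 7 introns passed, the 4 above with Srpk2 intron 5, Ndufa5 intron 3 and Rcl1 intron 5. Leaving out 1 library left 1 call without KO1, 2 without KO2, 2 without WT2, 3 without KO3 or WT3, and 23 without WT1.

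**Figure D1:**
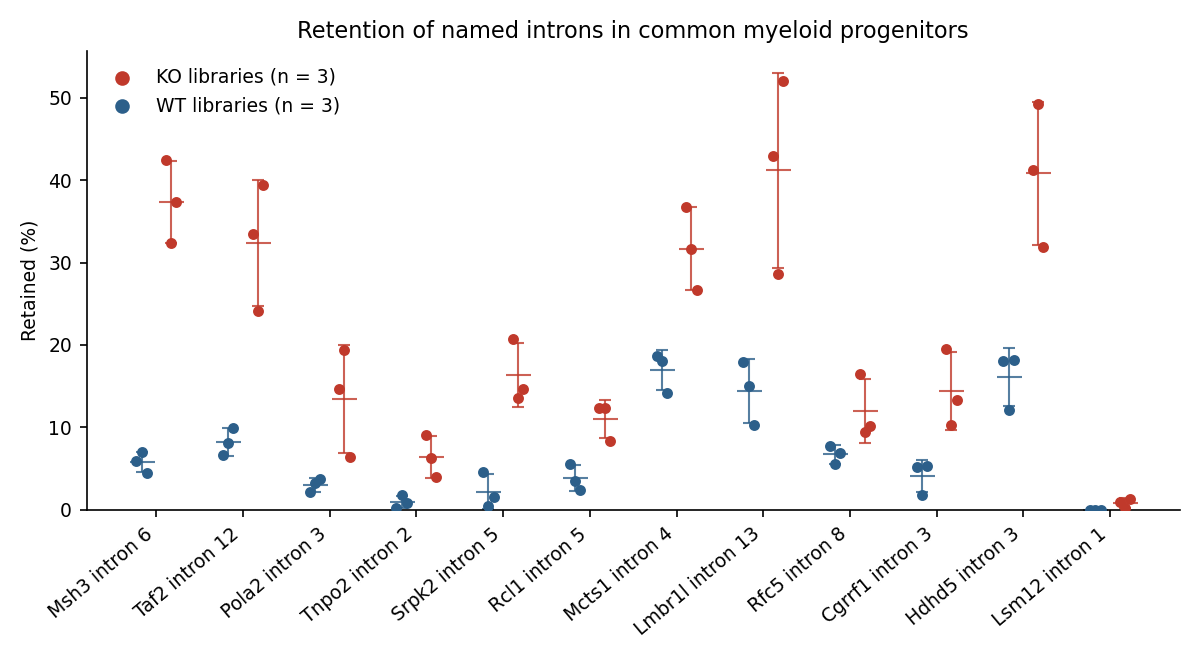
Percent retained (y axis) of 12 named introns (x axis) in each KO library (red) and WT library (blue), with the mean and SD of the 3 libraries of a group. Msh3 intron 6 shows the widest gap among the called introns, 32.4% to 42.4% in KO against 4.52% to 6.98% in WT.

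Among the named introns with an adjusted p just above the threshold, those in Srpk2 and Mcts1 carry the same 5′ site. Intron 5 of Srpk2, a kinase of SR splicing factors, was retained at 20.8%, 13.6% and 14.6% in KO libraries and at 4.54%, 0.5% and 1.58% in WT libraries, with no overlap (log2 ratio change 3.49, diffSpliceDGE adjusted p = 0.0895). Intron 4 of Mcts1, a translation re-initiation factor, stood at 36.7%, 31.7% and 26.7% in KO against 18.7%, 18% and 14.1% in WT libraries (change 1.18, SE 0.34, diffSpliceDGE adjusted p = 0.0895). Retention was therefore substantial in WT cells too for Mcts1, unlike Srpk2. The Mcts1 gene level had a log2 change of -0.38 that was not called.

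Among further U12-type introns with KO libraries above all WT libraries, intron 13 of Lmbr1l, a membrane protein of lymphocyte development, was retained at 43%, 28.6% and 52.1% in KO and 17.9%, 15% and 10.3% in WT libraries (diffSpliceDGE adjusted p = 0.245). The values for intron 8 of Rfc5, a subunit of the clamp loader RFC, were 16.4%, 9.38% and 10.1% in KO and 7.77%, 5.55% and 6.85% in WT. Intron 3 of Cgrrf1, a RING finger protein, had 19.6%, 10.3% and 13.3% against 5.23%, 1.82% and 5.26%. None of these passed, though the groups were apart in each. Intron 13 of Vps16, a subunit of the endosomal tethering complexes HOPS and CORVET, had 24.5%, 21.9% and 19.2% in KO and 15.6%, 16.1% and 10.6% in WT libraries. Intron 6 of Vps9d1 overlapped, at 51%, 62.7% and 41.4% against 42.3%, 27.4% and 22.4%. Intron 3 of Hdhd5, whose 3′ end was not covered, had 41.3%, 49.3% and 31.9% in KO and 18.1%, 12.1% and 18.2% in WT. Intron 1 of Lsm12 had 1 to 8 boundary reads per KO library and 0 in each WT library, too few for a level in WT.

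As a class, U12-type introns were more retained in KO cells, by a modest amount that was spread over many introns. Of the 68 U12-type introns tested, in 66 genes, 50 were higher and 18 lower in KO, beside 55.8% higher among all introns tested. At an unadjusted p under 0.05, 18 were higher and none lower, beside 3.64% higher and 2.51% lower over all introns. The KO libraries lay above all WT libraries for 15 and below for 2, beside 5.33% and 4.02%. Only 2 of the 68, in Msh3 and Pola2, passed the adjusted threshold. The median log2 ratio change of the class was 0.41, against 0.09 over all introns tested. It was 0.35 in GMP and 0.29 in MEP of the same mice, against -0.09 and 0.02 over all introns tested.

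The mean percent retained of the class was 15.5, 14.7 and 14.9 in the KO libraries and 12.4, 11 and 11.1 in the WT libraries. Each KO library was above each WT library, with means of 15 ± 0.404 and 11.5 ± 0.774 (SD, n = 3). In the wider group with an exact U12 5′ site, 100 introns of 93 genes were tested, of which 83 were higher and 17 lower. At an unadjusted p under 0.01, 13 were higher and none lower, beside 1.03% and 0.594% over all introns. Their median change was 0.54, and their mean retention was 13.1%, 12.9% and 12.2% in KO and 10.3%, 8.77% and 8.14% in WT libraries. For the 13413 other introns with a known 5′ end, 56.9% were higher, the median change was 0.08 and the means were 11.5% ± 0.41 and 11.2% ± 0.694 (SD, n = 3).

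**Figure D2:**
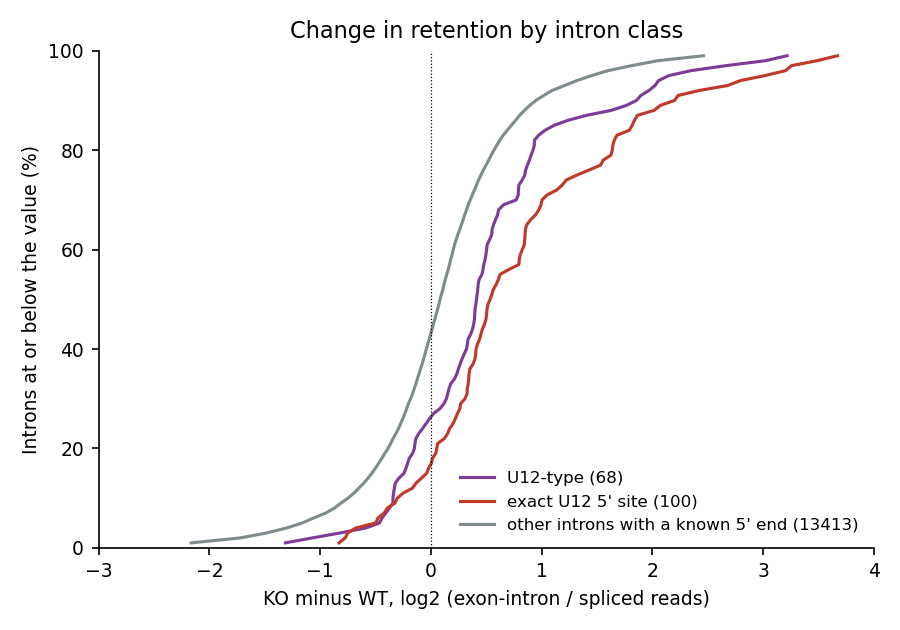
Cumulative share of introns (y axis, percent) at or below each KO minus WT change of the log2 ratio of boundary to spliced reads (x axis), for U12-type introns (68), introns with an exact U12 5′ site (100) and other introns with a known 5′ end (13413). Both U12 curves lie to the right of the other introns over most of the range, with medians of 0.41, 0.54 and 0.08.

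Properties of the introns within the class are given here as descriptions, with no test of their differences. In the group with an exact 5′ site, the median change was 0.64 from boundary reads at the 5′ end and 0.48 from those at the 3′ end. Introns that begin with GT (70) and with AT (30) had medians of 0.54 and 0.52. Introns under 1000 bases (44) had a median of 0.53, and longer ones (56) one of 0.54. First introns (4) had a median of 1.74 and were all higher, and later introns (96) one of 0.52. U12-type introns ending in AG (52) and AC (16) had 0.40 and 0.46. Those with up to 12 bases after the next-to-last base of the branch match (39) and with more (29) had 0.41 and 0.42. Introns retained below 5% in WT (49) had a median log2 change of 0.85 and those above (51) one of 0.36; the WT level is part of the change itself. A change above 1 on the log2 scale was seen in 30 of the 100 introns with an exact site and in 9.22% of the other introns.

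Neighbouring introns of the same genes gave a comparison within the transcript. The 624 other introns of the U12 host genes had a median change of 0.15, with 59.3% higher, and were retained at 6.21% ± 0.455 in KO and 5.78% ± 0.428 in WT libraries (SD, n = 3). At an unadjusted p under 0.01, 16 of the 624 were higher and 2 lower, beside 1.03% and 0.594% over all introns tested. Host gene levels stayed close to those of all genes: 40 of the 93 genes with an exact site were higher in KO and the median log2 change was -0.02. Spliced reads across the exact-site introns relative to the rest of their genes had a median log2 change of -0.01. The covered fraction of exact-site introns averaged 0.883 ± 0.029 in KO and 0.806 ± 0.068 in WT libraries (SD, n = 3).

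Introns with higher retention in KO at an unadjusted p under 0.01 mostly lacked an exact U12 5′ site where their 5′ end was known. The 642 introns, in 585 genes, were set against the 371 with p under 0.01 that were lower and against all introns tested. Among those whose 5′ end was known, 13 of 115 higher introns (11.3%, 95% Wilson interval 6.73 to 18.4) carried an exact U12 5′ site, against 0 of 66 lower introns and 100 of 13538 tested (0.739%). Without WT1 the share was 4.90% (14 of 286). With at least 20 boundary reads per library on average, the share was 14.1% (9 of 64) against 0 of 19 and 0.71%. The 13 higher introns with an exact site were all higher in GMP and 11 of them in MEP as well, with median changes of 1.35 and 1.25. Of the 102 others with a known 5′ end, 43.1% were higher in GMP and 57.8% in MEP, beside 42.5% and 51.1% of all introns tested.

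Other features of the higher introns are given as descriptions. Their median length was 905 bases, against 1190 for lower introns and 977 for all. Median GC content was 52.8%, 49.5% and 51.6%, known for 50, 25 and 6182 introns. First introns made up 6.23% of the higher set, 7.55% of the lower set and 9.86% of all, and last introns 11.2%, 11.6% and 13.5%. They shared a splice site with another listed intron in 10.3%, 12.9% and 13%. Boundary reads per library had a median of 10.9 in the higher set, 9.67 in the lower set and 20.2 over all introns, and under 10 such reads were found for 47.4%, 51.5% and 25.5%. Introns with few boundary reads were thus common in both sets. Across all introns tested, the change correlated with GC content at 0.03 and with the number of boundary reads at -0.07 (Spearman, a description across introns that share libraries).

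The next named introns could not be classed as U12-type or not. They included intron 5 of Rcl1, a ribosomal RNA processing factor, at 12.4%, 12.4% and 8.32% in KO and 5.51%, 3.51% and 2.45% in WT libraries (diffSpliceDGE adjusted p = 0.0715). Intron 2 of Vps25, an ESCRT-II subunit, was at 5.05%, 6.89% and 4.52% against 2.29%, 1.77% and 1.19%. Intron 24 of Tarbp1, a tRNA methyltransferase, was at 7.14%, 9.8% and 11.6% against 2.37%, 0% and 0.341%, and the order was the other way in GMP, 3.05% in KO and 4.88% in WT. All 3 had KO libraries above every WT library without passing the test. In the opposite direction, intron 6 of Ms4a3, a membrane protein of granulocyte progenitors, had 0 to 2 boundary reads per KO library and 15 to 26 per WT library (diffSpliceDGE adjusted p = 0.0715). The other introns named by smallest p in that direction, in Lrrcc1, Sde2, Kpnb1 and Lmf1, did not pass either.

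Gene levels differed for few genes. Of 17563 genes tested, 4 passed the edgeR quasi-likelihood test (0.0228%): Zrsr2 and Sec14l1 fell (0.0114%) and Pcyt2 and Spag1 rose (0.0114%). At an unadjusted p under 0.05, 417 genes were higher (2.37%) and 622 lower (3.54%) in KO, and under 0.01 78 (0.444%) and 105 (0.598%). KO libraries lay above all WT libraries in 1096 genes (6.24%) and below in 1018 (5.8%). By direction alone, 49.6% of genes were higher and 49.9% lower. DESeq2 on the same counts called 46 genes, 22 higher and 24 lower. Leaving out 1 library left 1 call without KO1, KO2 or WT3, and 2 without KO3, WT1 or WT2.

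Sec14l1, at chr11:117115168-117159268, encodes a member of the SEC14 family, whose proteins bind lipids. Its levels were 18.4, 17.8 and 16.2 CPM in KO and 28.6, 28.7 and 33.7 CPM in WT libraries. All KO libraries were below the WT libraries, a log2 change of -0.80 (SE 0.105, edgeR adjusted p = 0.0093), and the change was -0.79 in GMP and -0.82 in MEP. Of its 15 listed introns, 3 had enough reads for the retention test. The first of these, at chr11:117150739-117153143, had a log2 ratio change of 3.59 (SE 1.39) that was not called, with 7.32% to 21.8% retained in KO and 0% to 7.25% in WT libraries. The next, with 9.64% to 44.2% against 1.86% to 10.4%, overlapped between groups. The third, at chr11:117155472-117156360, went the other way, with 1.32% to 3.85% in KO below the 4.02% to 10.2% in WT libraries (log2 ratio change -1.25, SE 0.628, not called).

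Spag1, at chr15:36178099-36235621, encodes a factor in the assembly of dynein arms of cilia. It stood at 10.2, 9.19 and 6.74 CPM in KO and 3.98, 3.73 and 3.32 CPM in WT libraries, with no overlap. The log2 change was 1.23 (SE 0.195, edgeR adjusted p = 0.0498), and it was 1.62 in GMP and 1.25 in MEP of the same mice. Of 17 listed introns 4 were tested, and the retention of none was called.

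Pcyt2, at chr11:120610087-120617936, encodes the enzyme that makes CDP-ethanolamine for phosphatidylethanolamine synthesis. It stood at 130, 131 and 131 CPM in KO and 98.7, 94.8 and 93.8 CPM in WT libraries. The groups were well apart (log2 change 0.44, SE 0.063, edgeR adjusted p = 0.022), but the change was 0.13 in GMP and 0.10 in MEP, and with GC-corrected offsets it was 0.32 (edgeR adjusted p = 0.98). Pcyt2 is the only called gene with a U12-type intron among those classed, intron 8, shown above. That intron was retained at 62.8%, 62.4% and 57.7% in KO and at 57.8%, 59.0% and 44.6% in WT libraries. Its retention was high in both groups, which overlapped (log2 ratio change 0.42, SE 0.351, not called). With the replicate number as a block, Sec14l1 kept its call (edgeR adjusted p = 0.045), while Pcyt2 and Spag1 missed it (edgeR adjusted p = 0.065 for each).

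**Figure D3:**
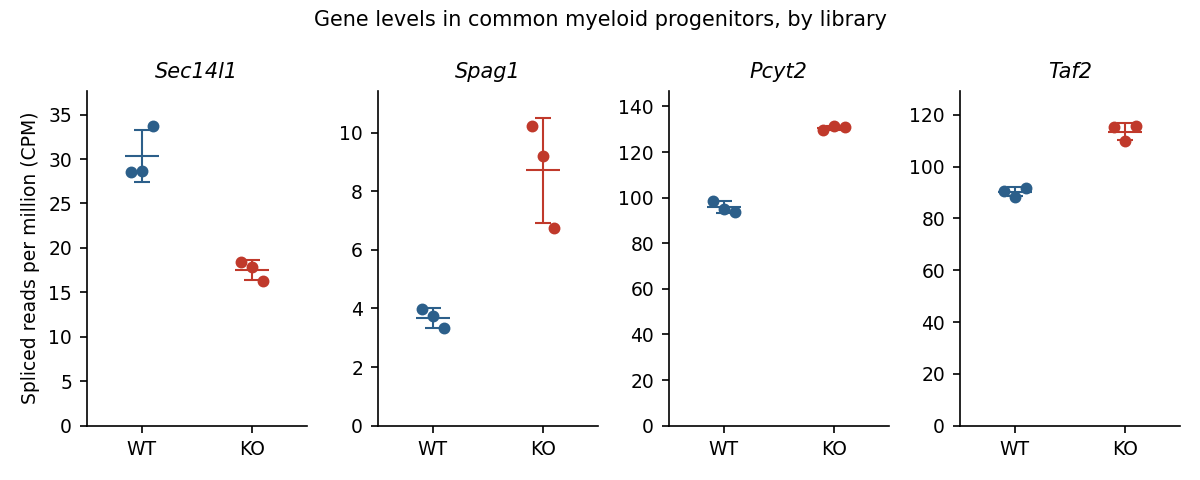
Spliced read level (y axis, CPM, from 0) of Sec14l1, Spag1, Pcyt2 and Taf2 in the 3 WT (blue) and 3 KO (red) libraries, with mean and SD. The groups do not overlap in any of the 4 genes; Taf2, at 110 to 116 CPM in KO against 88.4 to 91.9 in WT, was not called.

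The largest uncalled differences in the higher direction were clustered on chromosome 7. Aplp1, an amyloid precursor-like protein of neurons, stood at 12, 10.5 and 4.63 CPM in KO and 2.24, 2.72 and 2.36 CPM in WT libraries (log2 change 1.88, edgeR adjusted p = 0.756). Nphs1, which encodes nephrin of the kidney filtration slit, stood at 17.8, 15.8 and 6.51 CPM against 3.35, 4.12 and 3.45 CPM. KO3 was the lowest KO library for both, and above every WT library. These CPM count a read once for every intron its gap contains, so they can rest on few reads counted many times. Kirrel2, a nephrin-like adhesion protein, Clip3, a microtubule linker, Syne4, a nuclear envelope protein, and Nfkbid, a nuclear IκB protein, had log2 changes of 1.87, 1.71, 1.26 and 0.73.

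These 6 genes lie within chr7:30280094-30513402, a window of 233309 bases defined after the values were seen. It touches 14 tested genes, all of them higher in KO, beside 49.6% of all genes. At an unadjusted p under 0.01, 8 were higher, beside 0.444%, and 11 had KO libraries above all WT libraries, beside 6.24%. None of the 14 was called. Both counts include the 6 named genes, which were picked by an unadjusted p under 0.01 and no overlap. Because the window was drawn around named genes, the excess over these shares was partly fixed by its choice and is no support for a cluster. A spliced read counts for every intron its gap contains, so a read with a long gap can count in several of these genes. Thap8 and Lrfn3 both stood at 0.340 CPM in WT2 and at 0.626 CPM in KO3. The values may therefore not be levels of separate genes, and the share of such reads was not tested. Between Syne4 and Nfkbid, the abundant genes Tyrobp and Hcst, an adaptor pair of myeloid and NK cell receptors, had log2 changes of only 0.14 and 0.09. The changes of Aplp1 and Nphs1 were 0.31 and 0.36 in GMP, and 0.58 and 0.52 in MEP.

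**Figure D4:**
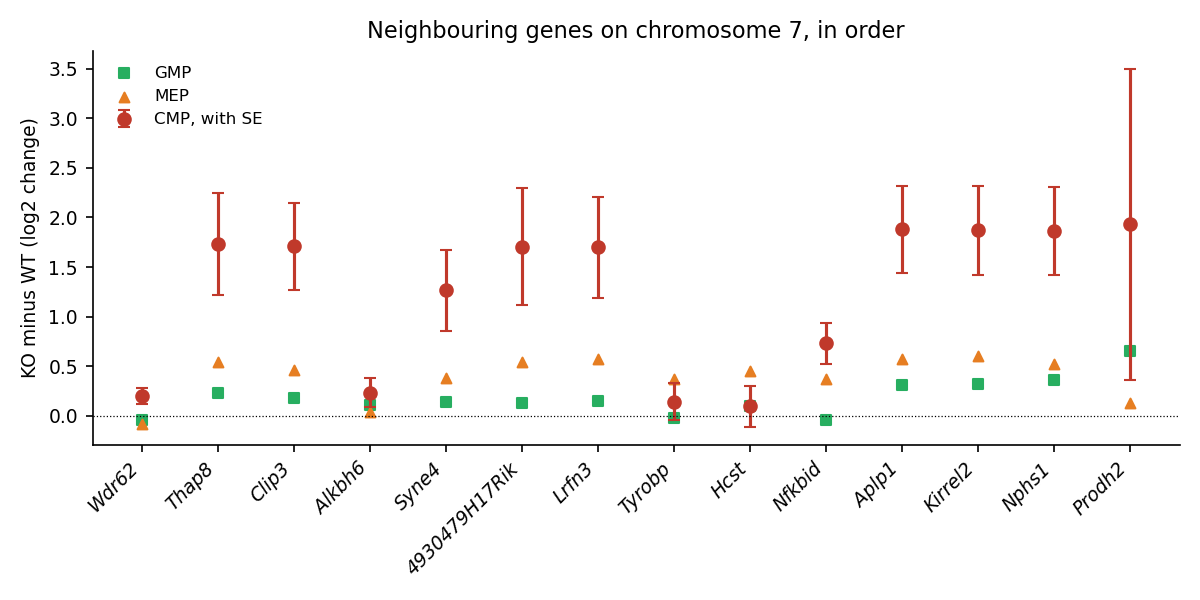
KO minus WT log2 change (y axis) of the 14 tested genes of the chromosome 7 window in their order along the chromosome (x axis), for CMP with its SE, GMP and MEP. The CMP points of Clip3, Aplp1, Kirrel2 and Nphs1 lie between 1.71 and 1.88, those of Tyrobp and Hcst near 0. A read whose gap spans several of these genes counts in each.

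In the lower direction, Zfp978, a zinc finger gene, stood at 7.15, 6.24 and 10.4 CPM in KO and 17.2, 16.7 and 19.2 CPM in WT libraries (log2 change -1.17). Mndal, an interferon-inducible protein of the p200 family, stood at 148, 181 and 164 CPM against 379, 421 and 231 CPM (-1.08), and was at 0.52 in GMP, the other direction. Srp54a, the GTPase subunit of the signal recognition particle, stood at 185, 166 and 204 CPM against 285, 279 and 338 CPM (-0.71, edgeR adjusted p = 0.224). All 3 kept KO libraries below every WT library, and none was called. The remaining genes named by size of change were Ppfia3 (-0.82 in CMP, 0.80 in GMP), Zfp59, Desi2, Zfp958 and Trpm4 in the lower direction, and Vwa7, Celsr2 and Adnp2 in the higher direction. Mndal and the Zfp genes belong to families with similar members; how reads shared between copies were counted is not given in the sources, so these values are uncertain.

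Genes within 1000000 bases of Zrsr2 were looked at because they lie on the targeted chromosome. Of 10 such genes tested beside Zrsr2, none was called. Grpr, the gastrin-releasing peptide receptor, had summed spliced counts of 13, 5 and 35 in KO and 0, 0 and 0 in WT libraries (edgeR adjusted p = 0.812). It was detected in every KO library and no WT library, at low counts. Pir, an iron-binding transcription cofactor, stood at 0.839, 0.396 and 0.73 CPM in KO and 1.01, 1.27 and 3.6 CPM in WT libraries. Ctps2, Piga and Siah1b had log2 changes of -0.17, -0.29 and -0.03.

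The listed proteins of the minor spliceosome, with Zrsr2 left out, were not called in either direction. Of 12 tested, 6 were higher and 6 lower in KO, none at an unadjusted p under 0.05, with a median log2 change of 0.00, equal to that of all genes. The range ran from -0.32 for Armc7 to 0.16 for Zmat5, and Rnpc3 and Snrnp48, specific proteins of the U11/U12 particle, had -0.03 and 0.04. Zrsr1, the related gene that the study's title pairs with Zrsr2, has no listed intron and is not analysed here. Among 16 genes of 3′ splice site recognition, 7 were higher and 9 lower, with Zrsr2 the only one at an unadjusted p under 0.05; U2af2, the major pyrimidine tract binder, had 0.08. The lists of 12 SR proteins and 19 factors of nonsense-mediated decay had medians of -0.01 and 0.02 and no member at that level. Among 21 hnRNP proteins, 5 were higher and 16 lower (median -0.05), with Hnrnpll at -0.21. With GC-corrected offsets the hnRNP median was 0.02, Hnrnpll was at -0.12 and the SR protein median was 0.04.

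The pathways of the retained introns' host genes differed little as lists. Of 34 DNA replication genes, 14 were higher and 20 lower (median -0.04). Pola2, at 245, 216 and 245 CPM in KO and 199, 203 and 227 CPM in WT libraries, was the only one higher at an unadjusted p under 0.05, while Pcna, Cdc6 and Rrm1 were lower. Of 8 mismatch repair genes, 6 were lower; Pms1, a MutL-type repair protein, stood at 12.2, 12.9 and 11.7 CPM against 15.4, 15.4 and 16.5 CPM, with no overlap and no call. The median of the repair list was -0.05, and 0.00 with GC-corrected offsets. Of 16 genes of phosphatidylethanolamine and phosphatidylcholine synthesis, Pcyt2 was called and 11 were lower (median -0.07).

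All but 1 of the other pathway lists had medians between -0.16 and 0.02. The 11 splicing genes mutated in myeloid neoplasms, which include Zrsr2, had a median of 0.05. The 23 p53 targets had a median of 0.02, and Mdm2, the ligase that degrades p53, was at -0.25. The 25 interferon-stimulated genes were split into 13 higher and 12 lower (median 0.00). The 77 subunits of oxidative phosphorylation had a median of -0.02; Cox7c, a small subunit of cytochrome c oxidase, stood at 16.8, 18.9 and 17.4 CPM in KO and 24.4, 24.2 and 24.0 CPM in WT libraries, a gap wider than the spread of either group that was not called. Among 12 heat shock genes, 10 were lower (median -0.16, and -0.12 with GC-corrected offsets). Hsph1, a chaperone of the HSP110 family, stood at 98.3, 110 and 106 CPM against 125, 131 and 180 CPM. Apart from Zrsr2, no member of these lists was called.

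No marker of a cell type was called, but some lists leaned to 1 side. In the list of mature neutrophil genes, 13 of 15 tested were higher in KO, 4 of them at an unadjusted p under 0.05, with a median log2 change of 0.84. Ltf, the granule protein lactoferrin, stood at 43.6, 12 and 42 CPM in KO and 14.4, 9.84 and 8.28 CPM in WT libraries. Lcn2, which encodes lipocalin 2, stood at 15.6, 6.79 and 11.1 CPM against 6.72, 2.89 and 3.54 CPM. KO2 was the lowest KO library for both, within the range of the WT libraries for Ltf and just above it for Lcn2. The list summed to 230, 111 and 217 CPM in KO and 133, 74.9 and 95.3 CPM in WT libraries, so that KO2 lay below WT1. The median of the same list was -0.54 in GMP and -0.09 in MEP. In bulk libraries, more cells of a type and more RNA per cell cannot be told apart, and the part of these markers in the other results was not tested.

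Among 18 markers of granulocyte-monocyte progenitors, 16 were higher (median 0.16), with Elane, neutrophil elastase, at 66.3, 114 and 51.2 CPM in KO and 48.3, 54.8 and 31.5 CPM in WT libraries. The Elane values overlapped. Cebpe, the factor of late granulocyte differentiation, had summed spliced counts of 9, 18 and 15 in KO and 11, 5 and 9 in WT libraries. These are too low to read its log2 change of 1.20 as a level difference. Of 17 megakaryocyte markers, 16 were higher (median 0.20) and none at an unadjusted p under 0.05, and of 23 erythroid markers 15 were lower (median -0.10). The erythroid list was highest in WT3, at 2848 CPM against 1379 to 1947 CPM in the other 5 libraries. The 16 stem cell and 15 early progenitor markers each had a median of 0.05. Of 8 markers of stroma and endothelium, 6 were higher (median 0.41), and the list summed to 169 to 180 CPM in KO and 141 to 174 CPM in WT libraries, which overlapped. Of 14 markers of mast cells, basophils and eosinophils, 9 were higher (median 0.15), with sums of 220 to 264 and 200 to 282 CPM. The lymphoid and the monocyte, macrophage and dendritic cell lists had medians of 0.01 and 0.05. None of the cell type markers was called, and the part of these lists in the other results was not tested.

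Base composition accompanied the gene changes in CMP. Over 7329 genes, the log2 change correlated with transcript GC content at 0.62 (Spearman, a description across genes), against -0.45 in GMP and -0.32 in MEP. The median change rose in steps over 5 equal groups by GC content, at -0.11, -0.06, -0.01, 0.04 and 0.10. Genes at an unadjusted p under 0.05 had a median GC content of 53.9% where higher and 45.4% where lower. After GC-corrected offsets the correlation was 0.02 and 4 genes were again called, with Taf2 among them and Pcyt2 not, while the changes of Sec14l1 and Spag1 were -0.86 and 1.29. The median of the neutrophil list was 0.85 after the correction.

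**Figure D5:**
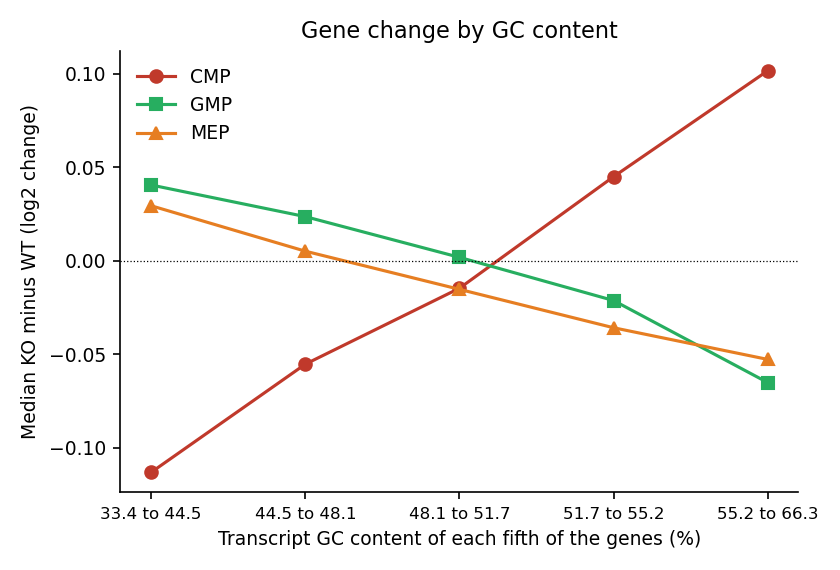
Median KO minus WT log2 change (y axis) of genes in 5 equal groups by transcript GC content (x axis, percent), for CMP, GMP and MEP. The CMP line climbs from -0.11 to 0.10, and the GMP and MEP lines slope the other way.

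Use of alternative junctions was compared at 5168 splice sites shared by 2 or more listed introns, 10617 introns in all. None was called (0.0%) by edgeR's diffSpliceDGE, where 274 had an unadjusted p under 0.05 (2.58%), and none (0.0%) of 10250 by limma on the usage ratios, where 726 did (7.08%). Usage did not overlap between KO and WT libraries for 1064 (10%). Without KO3, and likewise without WT3, 1 junction was called. Exon skipping made up 2032 of the sites with a shared 3′ site and 1978 of those with a shared 5′ site. Sites over 60 bases apart made up 768 and 389, and 1 site had alternatives 4 to 60 bases apart.

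The junction with the smallest p lay in H2-T22, a nonclassical MHC class I gene. The junction at chr17:36039375-36040477, which skips an exon, took 7.56%, 8.40% and 6.17% of the reads at its 3′ site in KO libraries and 17.4%, 39.8% and 16.1% in WT libraries. WT2 was far above the other WT libraries, and all KO libraries were below them (log2 usage change -1.90, SE 0.46, diffSpliceDGE adjusted p = 0.17). H2-T22 has similar neighbours in the MHC, and how shared reads were counted was not given, so this value is uncertain. In Itsn1, an endocytic scaffold, the junction at chr16:91854656-91863256 had 8, 13 and 12 reads in KO and 0, 1 and 0 reads in WT libraries. In Mndal, the junction at chr1:173862884-173871377 took 45.6%, 42.8% and 40.3% of its site in KO and 72.6%, 76.9% and 65.6% in WT libraries, beside the lower gene level. In Ccna2, which encodes cyclin A2, the shorter junction had 11, 10 and 14 reads in WT and none in KO libraries, under 1% of its site in each WT library. None of these was called, though the groups did not overlap in any.

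At sites that hold a U12-type intron or an exact U12 5′ site, alternative use was limited. Lsm5, a subunit of the U6-associated Lsm ring, has a U12-type intron 2 at chr6:56703034-56703313. A junction that skips the exon before it, at chr6:56703034-56704622, took 11%, 7.50% and 6.39% of the shared 3′ site in KO and 4.78%, 3.89% and 3.96% in WT libraries. All KO libraries were above the WT libraries, with a log2 usage change of 1.01 (SE 0.35, limma adjusted p = 0.46). In Fam92a, which encodes a BAR-domain protein of cilia, both junctions compared start at the same exact U12 5′ site. The shorter, classed as U12-type, took 7.84%, 11.3% and 13.8% of this site in KO and 4.35%, 5.15% and 9.23% in WT libraries, with overlap. The longer was not classed, because its 3′ end was not covered. The sites in Smox, Ptpn7, Mau2, Mapk9 and Mapk8 were not called either.

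Whether the genotype effect on gene level differed between cell types was tested as an interaction. Between CMP and GMP no gene passed in edgeR, with 857 at an unadjusted p under 0.05 and none passing in any alternative fit. Between CMP and MEP 2 genes passed, Syne2 and Rdh12, both with changes near 0 in CMP. For Sec14l1, Spag1 and Pcyt2, whose changes in the 3 cell types are given above, the difference between cell types was not called.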

How the data were processed

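The build is mm10, per the submitters' processing notes; for the aligner and the counter of reads, the names were not given in the sources used here. Per the file headers, the deposited tables give for each intron whole-number counts of unspliced reads at each boundary and of spliced reads, the covered fraction of the intron and its percent retained. The spliced count of an intron includes reads whose gap contains it: the longer of 2 introns sharing an end never exceeded the shorter, in 8764 and 8859 pairs over 18 libraries, so longer introns were taken off the shorter for junction usage, in place of the counts as deposited.

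All 219945 introns matched GENCODE M21. Genes, introns and junctions were tested in R 4.3.3 with edgeR 4.0.16 (quasi-likelihood test, and diffSpliceDGE for introns and junctions) on the 18 CMP, GMP and MEP libraries, with TMM factors, filterByExpr and Benjamini-Hochberg adjustment over all features tested, at 0.05. Ratios took a pseudocount of 0.5 and their SEs came from limma 3.58.1; DESeq2 1.42.0 was an alternative. CPM were computed here. The scripts were tested on simulated data. Each group holds 3 mice. The spread behind the p-values was estimated over all 18 libraries of the 3 cell types, with no term for the mouse. The same mice gave all 3 cell types, so these libraries are not independent. The p-values do not measure the spread between the CMP animals alone. Same-numbered KO and WT libraries deviated together (r = 0.274, 0.139 and 0.141 over 7329 genes, other pairs -0.273 to 0.137). KO2 correlated with WT3 (0.137) nearly as much as with WT2 (0.139), and the labels state no pairing. Whether the numbers pair the samples is therefore not settled, and the replicate block is given as an alternative. The binomial interval covers counting error only.

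Named were Zrsr2, all called genes, introns and junctions, up to 10 genes per direction by size of change (unadjusted p under 0.01, no overlap, at least 5 CPM), up to 4 members of each list by smallest p, up to 15 higher and 5 lower introns, up to 15 U12-type introns and up to 8 further junction groups by smallest p. Members and lists were chosen with earlier results of these data known. GC-corrected offsets, thinning, the block over 18 libraries, the exact-site group, the introns of called genes, the genes near Zrsr2 and the chromosome 7 window were added after seeing the data. A few items are not reported here.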

Additional observations from a re-analysis of the deposited data

Results flagged for a closer look

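The interaction test of gene levels found 2 genes whose KO effect differed between CMP and MEP. Syne2, a nuclear envelope spectrin-repeat protein, had a log2 change of 0.06 in CMP and 3.95 in MEP, a difference of -3.89 (SE 0.379, edgeR adjusted p = 0.000398). Rdh12, a retinol dehydrogenase, had -0.07 in CMP and 2.76 in MEP, a difference of -2.83 (SE 0.412, edgeR adjusted p = 0.0367). Both were drawn out by their change in MEP, and neither was called in CMP. No gene passed between CMP and GMP in edgeR.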

How the results depend on the processing

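The 4 genes called became 2 with the replicate block over 18 libraries, 46 with DESeq2, 1 with median counts over introns and 1 with only the 6 CMP libraries, and 1 to 2 when 1 library was left out. Zrsr2 passed in all 19 alternatives, Sec14l1 in 12, Pcyt2 in 7 and Spag1 in 6. The 4 introns called became 7 with the replicate block over 18 libraries, 2 with the block in the 6 CMP libraries, 2 from boundary reads alone, 8 from the higher-coordinate end and 0 from the lower-coordinate end (diffSpliceDGE, 2835 of 44198 at an unadjusted p under 0.05), and 1 to 23 when 1 library was left out. Of 16 alternatives, Msh3 passed in 14, Taf2 in 10, Pola2 in 9 and Tnpo2 in 7. The alternative with a pseudocount of 5 kept the p-values of the main test, so all 4 passed there by construction. Junction calls numbered 0 to 1 without 1 library and 0 otherwise. Genes that differed between CMP and MEP numbered 1 with the block, with or without GC correction, 1 after thinning to the smallest library, 0 with median counts, 1 without a filter and 1 to 2 without 1 library. Among the named genes, the replicate block in the 6 CMP libraries took the call from 3 and gave a call to 1. The U12-type median of 0.41 ranged from 0.33 to 0.50 without 1 library, and on the percent scale the class differed by 3.55 points on average. The exact-site share of 11.3% was 39.1% at p under 0.001 and 4.90% to 13.7% without 1 library. Tmem107 intron 3 turned to -0.61 from the higher-coordinate end. The cause of these shifts was not tested. Many introns had under 10 boundary reads per library, which limits single-intron calls; U12-type introns could be classed only where another transcript covers them, and 3 mice per genotype limit all tests.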
